A study of Mus musculus with 8 samples.

Results

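The shortest small RNAs of mouse germ cells, sequences of 15 to 19 nt, were taken by length alone from all 8 count tables. They comprised 667794 of the 2137470 distinct sequences. Libraries had been made from male mouse primordial germ cells (mPGCs) of 3 ages, E12.5, E13.5 or E15.5, and from Day 6 mPGC-like cells (mPGCLCs) of the SGET line, with 2 libraries in each of the 4 groups. The labels give the mPGCs as GOF18, strain C57BL/6J, cut from pooled pairs of male genital ridges and sorted on SSEA1 and CD61, whereas the study's methods describe a mixed FVB/C57BL/6J background and a reporter sort. The mPGCLCs came from male SGET embryonic stem cells, strain B6CBA/129, and were sorted from embryoid bodies as Stella-GFP positive and Esg1-tdTomato negative, so they differ from the mPGCs in strain and sort as well as in origin. The tables summed to 7447873 and 13614516 at E12.5, 12043363 and 19734948 for E13.5, 13601492 and 26552524 for E15.5, and 10209580 and 9526338 in SGET mPGCLCs. In this order, replicate 1 and then replicate 2 of each group, all sets of values below are given.

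Reads of this length lie below the sizes of microRNAs (miRNAs), which Dicer cuts to about 22 nt, and of PIWI-interacting RNAs (piRNAs), which are longer and protect the germline against transposable elements. Such short reads can be pieces of abundant structural RNAs, such as transfer RNAs (tRNAs), ribosomal RNAs (rRNAs) and small nuclear RNAs. Every mature tRNA ends in the bases CCA, which an enzyme adds after transcription and which mammalian nuclear tRNA genes do not encode.

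The most abundant short sequences are shown first, because at least 5 of the 10 most abundant in each library shared that ending. Among the 100 most abundant, 15 to 47 did. The first 3 lines are the sequences with the highest mean share of all reads over the 8 libraries, among those that can be printed. The next line is the most abundant sequence with a match to a protein-coding gene. All are 5′ to 3′, and capitals mark a terminal CCA.
Short sequence 1: tccccggcatctccaCCA
Short sequence 2: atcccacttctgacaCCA
Short sequence 3: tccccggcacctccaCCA
Gys1-matching sequence: tccccagcatctccaCCA

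Short sequence 1 was the most abundant printed sequence at E12.5, at E13.5 and in SGET mPGCLCs, and short sequence 2 was so at E15.5. Short sequence 1 held 0.230% and 0.291% of all reads at E12.5, 0.309% and 0.360% for E13.5, 0.0320% and 0.0398% for E15.5, and 0.165% and 0.255% in SGET mPGCLCs. Both E15.5 libraries lay below all the others. Short sequence 2 held 0.194%, 0.167%, 0.271%, 0.196%, 0.0478%, 0.0455%, 0.109% and 0.173%. Neither they nor short sequence 3 matched a GENCODE transcript in the sense direction, and nuclear tRNA sequences were not analysed here, so no tRNA is named for them. The Gys1-matching sequence lies in an exon of Gys1, the gene of muscle glycogen synthase, at chr7:45451584-45451601 on the plus strand of GRCm38. Whether this part of the transcript is coding was not determined. Its share was 0.131% ± 0.00578 (SD, n = 2) at E12.5 and 0.193% ± 0.0621 (SD, n = 2) at E13.5. It was 0.0230% ± 0.00907 (SD, n = 2) at E15.5 and 0.0486% ± 0.000572 (SD, n = 2) in SGET mPGCLCs.

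The most abundant sequences with a match to structural RNAs are shown to place the fragments within their parent molecules.
Ribosomal repeat (Gm42418): tgcggaaggatcatta
U1 small nuclear RNA (Rnu1a1): gttcgcgctctcccctg
U3 small nucleolar RNA (Rnu3b1): accacgaggacgagacg
5S ribosomal RNA (Rn5s): ctcgtctgatctcggaagc

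The ribosomal fragment lies at chr17:39848186-39848201 on the plus strand, in Gm42418, a long non-coding RNA annotated over the 18S part of the ribosomal repeat. It made up 0.0323% ± 0.0172 (SD, n = 2) of reads at E12.5, 0.00284% ± 0.00104 (SD, n = 2) at E15.5 and 0.105% ± 0.0465 (SD, n = 2) in SGET mPGCLCs. The U1 fragment consists of the last bases of U1, the RNA that recognises 5′ splice sites, at positions 148 to 164 of a transcript of 164 bases (chr11:87423014-87423030, plus strand). It matched 16 annotated U1 genes, so its gene of origin is uncertain. Averaged over libraries, 74.2% of short Rnu1a1 reads ended at the last base of the transcript. The U3 fragment (chr11:87443311-87443327, plus strand) matched 6 genes of U3, which guides rRNA processing, and began at position 75. The 5S fragment matched 51 genes and was seen in only 3 libraries, with 147 reads in E12.5 replicate 2, 207 in E13.5 replicate 2 and 775 in SGET mPGCLC replicate 2.

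Short reads formed a large part of the E12.5, E13.5 and SGET mPGCLC libraries, but a small part of those at E15.5. They made up 56.9% and 46.0% of all reads at E12.5, 56.0% and 36.4% for E13.5, 10.5% and 4.79% for E15.5, and 55.3% and 46.1% in SGET mPGCLCs. The 95% Wilson intervals were narrow, for example 4.78 to 4.80% in E15.5 replicate 2, and cover counting error only, since reads include PCR copies. The spread between replicates was far wider than these intervals. Replicate 1 had the higher share in 4 of 4 groups. The fall from E13.5 to E15.5 was 6.03-fold, from 46.2% ± 13.9 (SD, n = 2) to 7.67% ± 4.06 (SD, n = 2), and the groups did not overlap. The exact two-sided permutation p was 0.333, the smallest that 2 libraries against 2 can give.

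In the ratio to miRNA-sized reads, the libraries at E15.5 overlapped those of the other groups. Short reads per read of 21 to 23 nt numbered 2.73 and 1.67 at E12.5, 2.51 and 1.32 for E13.5, 2.04 and 1.14 for E15.5, and 2.27 and 1.37 in SGET mPGCLCs. All 4 groups overlapped in this ratio. From E13.5 to E15.5 it went from 1.91 ± 0.842 (SD, n = 2) to 1.59 ± 0.640 (SD, n = 2), a fold of 0.832 with a propagated SD of 0.496 (exact permutation p = 0.667). Without E13.5 replicate 1 the fold was 1.21, and without E15.5 replicate 2 it was 1.07. The fold was lower under other counts, with 0.482 when the top 100 sequences of either length range were left out, 0.604 with 20 to 24 nt as the denominator, and 0.358 over distinct sequences above a count minimum set for each library, an alternative chosen after seeing the data. Within replicate 1 the ratio went from 2.51 to 2.04 and within replicate 2 from 1.32 to 1.14. Reads of 21 to 23 nt themselves went from 25.02% ± 3.77 (SD, n = 2) of all reads at E13.5 to 4.69% ± 0.667 (SD, n = 2) at E15.5. Reads of piRNA size, 26 to 29 nt, took up 7.33% and 11.6% for E13.5 and 63.3% and 64.4% for E15.5. These tables hold no external standard, so a loss of short RNA per cell and a gain of longer RNA cannot be told apart.

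The other 2 comparisons showed no separation of the groups. The share at E13.5 was 0.899 times that at E12.5 (propagated SD 0.302, exact permutation p = 0.667), and the share in SGET mPGCLCs was 0.986 times that at E12.5 (propagated SD 0.194, exact permutation p = 1.0). The ratio to 21 to 23 nt reads was 0.869 and 0.829 times that at E12.5, respectively, with propagated SDs of 0.484 and 0.404. Within replicate 1 it went from 2.73 at E12.5 to 2.51 at E13.5 and 2.27 in SGET mPGCLCs. Within replicate 2 it went from 1.67 to 1.32 and 1.37. With the replicate block the ratio folds were 0.851 and 0.828.

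The lengths from 15 to 18 nt were about equally common, and 19 nt was rarer. The authors' trimming kept reads of at least 15 nt, so shorter ones cannot be seen. Their libraries were also cut from a gel after PCR, and the part of this size selection in the shares was not tested. Of short reads, 15-nt reads made up between 19.5% and 24.5% in the 8 libraries, and 19-nt reads between 11.5% and 14.4%. No 5′ base dominated: U began between 22.8% and 27.8% of short reads, A between 25.9% and 29.2%, G between 21.8% and 30.6%, and C between 17.5% and 24.8%. In the same libraries, U began between 37.7% and 64.8% of reads of 21 to 23 nt and A between 20.5% and 42.9%, and A exceeded U in both SGET mPGCLC libraries. At E15.5 the U share was 58.5% and 64.8% among 21 to 23 nt reads, against 27.8% and 26.8% among short reads. The 18-nt reads began with A in 32.0% to 37.8%, and the 17-nt reads with U in 25.9% to 35.0%.

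Each of the 20 classes of length and 5′ base fell as a share of all reads from E13.5 to E15.5. In edgeR's quasi-likelihood test, with the file total as library size, 20 of 20 short classes were lower with a Benjamini-Hochberg adjusted p under 0.05, against 38.9% of the 108 classes of all lengths called lower and 20.4% called higher. Their log2 fold changes lay between -2.94 and -2.18, with a median of -2.60, beside -0.74 over all classes. The largest change was in 15-nt reads with 5′ C (log2 fold change -2.94, SE 0.47, adjusted p = 5.6e-06 in edgeR), and the smallest in 19-nt reads with 5′ U (-2.18, SE 0.46, adjusted p = 9.2e-05 in edgeR). Of the classes of 20 to 24 nt, 18 were also lower. The 20 classes share their libraries and are not independent. With reads of 21 to 23 nt as library size, 0 of 20 classes passed in edgeR, and their median log2 fold change was -0.28, while that of all classes moved to 1.83. The count was also 0 with TMM factors and with DESeq2, where the medians were -1.18 and -1.56. In the comparison of E13.5 with E12.5, 0 of 20 classes passed in edgeR in either direction, 0 at an unadjusted p under 0.05, beside 4.63% of all classes called higher and 0.0% called lower. In SGET mPGCLCs against E12.5, 0 of 20 passed, 0 at an unadjusted p under 0.05, beside 0.0% of all classes in each direction. DESeq2 also called 0 of 20 in both.

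CCA was the most common ending of short reads in all 8 libraries, an analysis chosen after the sequences were seen. It ended 9.72% and 16.9% of short reads at E12.5, 12.4% and 20.4% for E13.5, 10.1% and 24.8% for E15.5, and 10.2% and 12.8% in SGET mPGCLCs. The next most common ending held at most 4.12%. CCA was concentrated at 17 and 18 nt. Of 18-nt reads, between 15.4% and 40.7% ended in CCA, against 5.34% to 13.9% of 19-nt reads. A second peak lay at 22 nt, with 10.8% to 27.9% of reads, while at 21 nt it was 1.99% to 3.44% and at 23 nt 0.507% to 1.40%.

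Fragments of both lengths with this ending overlapped in sequence. Of the 17- and 18-nt CCA reads, 60.4% and 50.5% at E12.5, 63.4% and 70.4% for E13.5, 47.3% and 35.3% for E15.5, and 28.8% and 37.7% in SGET mPGCLCs were identical to the 3′ end of a 22-nt sequence with at least 10 reads in the same library. The 2 E13.5 libraries had the highest values, and the SGET mPGCLC libraries lay below those at E12.5 and overlapped those at E15.5. Over all reads, with or without CCA, 9.17% to 24.4% at 17 nt were the 3′ end of a sequence of 21 to 23 nt. At 18 nt this was 13.3% to 32.8%. Per 22-nt CCA read there were 1.94 ± 0.267 (SD, n = 2) CCA reads of 17 and 18 nt at E12.5, 1.47 ± 0.0267 (SD, n = 2) at E13.5, 1.97 ± 0.0859 (SD, n = 2) at E15.5 and 2.14 ± 0.411 (SD, n = 2) in SGET mPGCLCs.

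CCA reads and other short reads both fell in share at E15.5, and CCA reads differed less between replicates in every group but E12.5. As a share of all reads they were 5.53% and 7.79% at E12.5, 6.94% and 7.44% for E13.5, 1.06% and 1.19% for E15.5, and 5.67% and 5.92% in SGET mPGCLCs. Short reads without CCA were 51.3% and 38.2%, 49.1% and 28.99%, 9.48% and 3.60%, and 49.6% and 40.2%. From E13.5 to E15.5 the share of CCA reads went to 0.156 times its former value and that of other short reads to 0.168 times. Per read of 21 to 23 nt, CCA reads numbered 0.290 ± 0.0293 (SD, n = 2) at E13.5 and 0.244 ± 0.0541 (SD, n = 2) at E15.5.

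The most abundant sequences held a small part of the short reads. The 10 most abundant held 2.90% and 3.47% at E12.5, 3.89% and 6.27% for E13.5, 2.81% and 7.35% for E15.5, and 1.71% and 2.80% in SGET mPGCLCs. All 10 ended in CCA in 5 libraries, and 8 did so in E15.5 replicate 1, 5 in SGET mPGCLC replicate 1 and 7 in SGET mPGCLC replicate 2. Of the 100 most abundant, 28, 39, 33, 47, 23, 39, 15 and 25 did so. The 100 most abundant held 8.14%, 9.11%, 9.93%, 12.8%, 10.2%, 27.3%, 7.12% and 7.90%. E15.5 replicate 2 stood apart, and the groups at E15.5 and E13.5 overlapped (exact permutation p = 0.667). The share of the 10 most abundant at E13.5 was 1.59 times that at E12.5, with no overlap (exact permutation p = 0.333, the smallest possible). In SGET mPGCLCs it was 0.708 times that at E12.5, also with no overlap (exact permutation p = 0.333). For the 100 most abundant these folds were 1.32 and 0.871, both with no overlap.

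E15.5 replicate 2 also had few distinct short sequences. A count valley was set in each library at the emptiest of the doubling count bins below the fullest one. This rule returns a valley whatever the shape of the counts. It lay at 8 and 8 counts at E12.5, 16 and 8 for E13.5, 4 and 64 for E15.5, and 16 and 32 in SGET mPGCLCs. Numbers and medians above the valley are thus compared at unlike cutoffs. Sequences at or above the valley held between 95.7% and 98.9% of short reads. There were 35593 and 56013 such sequences at E12.5, 15219 and 61614 for E13.5, 19591 and 1130 for E15.5, and 20928 and 10829 in SGET mPGCLCs. Their median count was 869 in E15.5 replicate 2 and 40.0 in E15.5 replicate 1. Counting each sequence above the valley once, short sequences were 61.8% ± 0.564 (SD, n = 2) at E12.5, 52.3% ± 4.92 (SD, n = 2) at E13.5, 5.16% ± 1.46 (SD, n = 2) at E15.5 and 61.7% ± 1.87 (SD, n = 2) in SGET mPGCLCs. The fall in share at E15.5 was present without either E15.5 library, with folds of 0.104 without replicate 1 and 0.228 without replicate 2.

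Most short sequences did not recur between libraries, but those that did could hold a large part of the reads. Of 176968 sequences with at least 10 reads in some library, 85.5% reached that count in 1 library and 131 in all 8. Of these 131, 54 ended in CCA, and they held 53.0% to 82.3% of the reads of the 131. E12.5 replicate 2 and E13.5 replicate 2 shared 11048 sequences, more than any other pair, with 39.2% and 40.5% of the reads of such sequences. The share of reads in sequences common to a pair ranged from 5.49%, in SGET mPGCLC replicate 1 with E15.5 replicate 2, to 52.4%, in E15.5 replicate 1 with E12.5 replicate 1. The E15.5 replicates shared 437 sequences, which held 11.0% of the reads of such sequences in replicate 1 and 26.3% in replicate 2.

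Most short reads had no exact sense match to a GENCODE transcript, with 87.1% to 91.6% unmatched in the 8 libraries. Of 21 to 23 nt reads, 31.8% to 56.0% were unmatched. The authors' mapping allowed mismatches and covered the whole genome, so an unmatched read here is one that no annotated transcript holds exactly. Protein-coding genes gave the largest matched class, 3.70% to 5.84% of short reads in the sense direction, beside 2.97% to 4.33% in the antisense direction. The surplus over antisense was small over 15 to 19 nt together, and the match rate depended on length. At 15 nt, 16.1% to 22.4% of reads had a sense match to any transcript and 12.9% to 19.6% an antisense match. At 19 nt these were 4.98% to 13.6% and 2.53% to 7.26%. For protein-coding genes alone, sense and antisense matches were 8.97% to 12.4% and 7.06% to 8.72% at 15 nt. At 19 nt they were 1.10% to 3.2% and 0.0440% to 1.07%, so the surplus was larger there. Matches of the shortest reads to coding transcripts are therefore given as matches and not as origins.

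Structural RNA classes were smaller, and small nuclear RNAs were almost wholly sense. Small nuclear RNAs held 0.252% and 0.479% of short reads at E12.5, 0.326% and 0.380% for E13.5, 0.0624% and 0.173% for E15.5, and 0.208% and 0.238% in SGET mPGCLCs, with at most 0.00150% antisense. Both E15.5 libraries were below all others. Small nucleolar RNAs, which guide RNA modification, held 0.171%, 0.353%, 0.261%, 0.307%, 0.209%, 0.0433%, 0.475% and 0.681%, and were highest in both SGET mPGCLC libraries. Annotated rRNA genes held 0.0313% to 0.321%, with more reads from 5S (Rn5s) than from CT010467.1 in every library but E15.5 replicate 1, where they numbered 121 and 324, and mitochondrial rRNA 0.00173% to 0.0433%. Mitochondrial tRNA held 0.00439% to 0.0612%, other small structural RNAs 0.000140% to 0.0161%, and all remaining transcripts 1.71% to 3.71%. Long non-coding RNAs over the ribosomal repeat held 1.64%, 1.40%, 1.29%, 1.08%, 1.88%, 2.02%, 1.64% and 2.37%. Of the 1517 short sequences in Gm42418, 1512 were also antisense to CT010467.1, an rRNA gene annotated on the other strand, and these were 68.95% of the 2193 short sequences antisense to CT010467.1, with 64.6% to 83.5% of their reads. Reads in either set made up 1.58% to 2.85% of short reads.

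Short reads from miRNAs were rare. Reads inside annotated miRNA genes made up 0.302% to 0.906% of short reads, against 35.4% to 64.7% of 21 to 23 nt reads. Mir6240, Gm44456 and Mir6236 had the highest mean shares among short reads of this class. In E12.5 replicate 1 they held 0.133%, 0.0216% and 0.0210% of short reads, beside 0.364% for the class. Exact 5′ ends of mature miRNAs in RefSeq (GRCm38.p6) held 0.0407% to 0.336% of short reads, and exact 3′ ends 0.00212% to 0.0481%. Per 100 whole mature miRNA reads there were 0.763 and 0.475 short reads identical to a 5′ end at E12.5, 0.389 and 0.594 for E13.5, 1.02 and 2.06 for E15.5, and 1.32 and 0.680 in SGET mPGCLCs. Of 1674 mature sequences, 134 had such a short read. The mature sequences with the most of them by mean share include these, with the seed, bases 2 to 8, in capitals.
miR-292a-5p: aCTCAAACtgggggctcttttg
miR-203-3p: gTGAAATGtttaggaccactag
let-7a-5p: tGAGGTAGtaggttgtatagtt

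miR-292a-5p belongs to a cluster active in pluripotent and early germ cells, and had 4605 such short reads against 715982 whole reads over the 8 libraries. let-7a-5p, a regulator of developmental timing, had 1920 against 78256. miR-203-3p, known from skin, had 4638 against 213 exact full-length reads. Short reads identical to its 5′ end numbered 461 and 968 at E12.5, 615 and 1449 for E13.5, 195 and 2 for E15.5, and 948 and 0 in SGET mPGCLCs. Full-length reads numbered 0 and 0, 1 and 64, 147 and 1, and 0 and 0. Both E12.5 libraries and SGET mPGCLC replicate 1 thus held the short reads without a full-length one, and these reads are given as matches and not as pieces of the miRNA. Short reads also outnumbered full-length reads for miR-27a-3p, with 2717 against 1373 over the 8 libraries, and for miR-5126, with 1906 against 0. Reads of these 3 are included in the numbers per 100 whole reads. Related miRNAs can begin with the same bases, and whether the short reads were particular to the miRNA named was not tested.

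The marker miRNAs of other cell types hardly occurred among short reads. The 12 germ and pluripotent cell miRNA genes, led by Mir292, had 174 and 186 RPM (short reads scaled to the file total) at E12.5, 112 and 84.3 for E13.5, 8.68 and 3.13 for E15.5, and 425 and 728 in SGET mPGCLCs. At 21 to 23 nt they had 42470 RPM ± 12950 (SD, n = 2) at E12.5, 33120 ± 7885 for E13.5, 2458 ± 250.5 for E15.5, and 66950 ± 20450 in SGET mPGCLCs. The erythroid genes Mir451a and Mir144 were at 0 in both length ranges. Mir202, of gonadal soma, had 57 short reads in E13.5 replicate 2, 2 in E15.5 replicate 2 and 0 elsewhere. At 21 to 23 nt it had 149 and 152 RPM at E12.5, 248 and 414 for E13.5, 53.6 and 57.9 for E15.5, and 0 in SGET mPGCLCs. The smooth muscle and stroma genes, led by Mir143, had at 21 to 23 nt 103 and 80.9 RPM at E12.5, 26.4 and 193 for E13.5, 20.1 and 60.0 for E15.5, and 305 and 692 in SGET mPGCLCs. Endothelial Mir126a had 17.4 to 69.4 RPM at 21 to 23 nt in all but the E15.5 libraries, where it had 0.0735 and 1.32. Mir223, of leukocytes, had at most 8.31 RPM and Mir122, of liver, at most 11.8. The other leukocyte gene listed, Mir142a, was not matched and has no value. Among short reads, Mir143 and Mir145a together had 183 in E13.5 replicate 2, 2 in E15.5 replicate 2 and 0 elsewhere, and Mir126a, Mir223 and Mir122 had 0. The part of these cell types in the results was not tested.

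By RNA class, 10 of 11 short classes were lower at E15.5 than at E13.5 as a share of all reads (edgeR quasi-likelihood test, adjusted p under 0.05), against 56.8% of the 44 combinations of class and length range called lower and 9.09% called higher. The median log2 fold change was -3.18, beside -2.23 over all combinations. Small nuclear RNAs changed by -4.43 (SE 0.48, adjusted p = 0.0005 in edgeR), rRNA by -3.71 (SE 0.78, adjusted p = 0.006 in edgeR), and the ribosomal-repeat RNAs by -1.92 (SE 0.46, adjusted p = 0.012 in edgeR). Mitochondrial rRNA was the exception, with -3.18 (SE 1.49, adjusted p = 0.092 in edgeR). The annotated rRNA class held 0.0313% of short reads in E15.5 replicate 1 and 0.198% in E15.5 replicate 2, so the size of its change depends on the library. With 21 to 23 nt reads as library size 1 of 11 passed, with TMM factors 1 and with DESeq2 2. The log2 fold change of the ribosomal-repeat RNAs was then 0.40, -0.28 and 0.11, so its direction turned under 2 of these scalings. In E13.5 against E12.5, 0 of 11 passed in edgeR, 0 at an unadjusted p under 0.05 and 0 in DESeq2, beside 2.27% of combinations called higher and 0.0% called lower. In SGET mPGCLCs against E12.5, the counts were also 0, 0 and 0, beside 0.0% in each direction.

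Few single source genes passed the test at E15.5. Of 1963 short features, 6 were lower than at E13.5 and 0 higher, against 0.53% of 9061 features of all lengths called lower and 0.243% called higher. Rn5s had 5834 and 21905 short reads at E13.5 and 121 and 1339 for E15.5 (log2 fold change -4.75, adjusted p = 0.008 in edgeR). Its share of all reads was 0.000890% in E15.5 replicate 1 and 0.00504% in E15.5 replicate 2, so its fold depends on the library. Rnu1a1 had 10921 and 15140 for E13.5 and 372 and 2158 for E15.5 (-3.95, adjusted p = 0.016 in edgeR). Gm42418 had 85541 and 76887 for E13.5 and 26871 and 25695 for E15.5 (-1.90, adjusted p = 0.0049 in edgeR). Lars2, the mitochondrial leucyl-tRNA synthetase, had 44656 and 35838 for E13.5 and 14144 and 4029 for E15.5 (-2.21, adjusted p = 0.037 in edgeR). Gys1 changed by -2.92 (adjusted p = 0.038 in edgeR). Most Gys1 reads were the CCA-ended sequence shown above, with 17924 of 22442 and 46713 of 54705 for E13.5 and 4005 of 5049 and 4411 of 6387 for E15.5, so this is a match and its gene of origin is uncertain. All short Lars2 reads lay between positions 3030 and 3416 of a transcript of 3894 bases. They too are given as matches and not as pieces of its messenger RNA, since their origin was not tested. The last, 4930556J02Rik, had 1594 reads in E13.5 replicate 1 and 0 in the other 3 libraries of this comparison, so its call rests on 1 library. With the 9061 features held fixed, an alternative chosen after seeing the data, 2 short features were lower without E13.5 replicate 1, 3 without E13.5 replicate 2, 3 without E15.5 replicate 2 and 9 without E15.5 replicate 1. Gys1 did not pass without any 1 of these 4 libraries. Lars2 did not pass without either E13.5 library, E15.5 replicate 2 or E12.5 replicate 1, and its log2 fold change was -4.19 without E15.5 replicate 1 and -1.41 without E15.5 replicate 2. Rn5s did not pass without E13.5 replicate 2 or E15.5 replicate 1, Rnu1a1 without either E13.5 library or E15.5 replicate 1, and Gm42418 without E13.5 replicate 1 or E15.5 replicate 2. With no filter on low counts, Lars2, Gys1 and Rnu1a1 did not pass. With TMM factors 0 features passed and Gm42418 stood at 0.54. With 21 to 23 nt reads as library size 1 was lower and 2 were higher, while the log2 fold changes of Lars2 and Gm42418 turned to 0.037 and 0.42. DESeq2 called 33 lower and 25 higher, and there Lars2, Gm42418 and Gys1 stood at 0.48, 0.89 and 0.19. Rn5s and Rnu1a1 stayed below 0 but did not pass, with -1.51 and -0.90 with TMM factors, -2.17 and -1.47 with 21 to 23 nt reads, and -1.36 and -0.91 in DESeq2.

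In the other 2 comparisons, edgeR called fewer features and DESeq2 more. In E13.5 against E12.5, 1 short feature was higher and 0 lower, beside 0.386% and 0.0% of all features, and it was 4930556J02Rik again, with 0 and 0 reads at E12.5 and 1594 and 0 for E13.5. This call, too, rests on 1 library. The count was 0 with TMM factors, with the replicate block and, with the features held fixed, without either E12.5 library or SGET mPGCLC replicate 1. Without E13.5 replicate 1 this gene had no reads in the comparison, and any call then rests on 1 E13.5 library. Kat14 had 0 and 0 reads at E12.5 and 1 and 180 for E13.5. DESeq2 called 54 higher and 12 lower. In SGET mPGCLCs against E12.5, 2 were higher and 0 lower, beside 0.0993% and 0.121%. These were 4930556J02Rik, with 6805 reads in replicate 1 and 1 in replicate 2, and Kat14, a subunit of a histone acetyltransferase complex, with 683 and 3770 reads against 0 and 0 at E12.5. Kat14 had at most 180 reads in any library outside SGET mPGCLCs, so it passed the filter on low counts through the group in which it was called higher. Its call is therefore given as counts and not as support for a difference. With the features held fixed, 0 were higher without either E12.5 library, 1 (Kat14) without SGET mPGCLC replicate 1 and 1 (4930556J02Rik) without replicate 2. The count was also 0 with TMM factors, and DESeq2 called 43 higher and 34 lower.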

How the data were processed

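The members and lists were chosen with earlier results of these data known. Per the labels, small RNA libraries were made with a kit that adds random adapter ends. The authors removed these ends (cutadapt 3.2), aligned the reads to GRCm38 (STAR 2.5.3a), kept 1 random position for a read with several, and deposited raw counts per distinct sequence. Random ends were not used as molecular identifiers.

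Sequences of 15 to 19 nt were selected by length. The 141767 GENCODE M21 transcripts searched were matched without mismatch on both strands, and a sequence in several classes took the first in the order rRNA, ribosomal-repeat lincRNA, mitochondrial rRNA, mitochondrial tRNA, miRNA, snRNA, snoRNA, misc_RNA, protein-coding, other. Sequences with N numbered 4403 and matched nothing. Counts were tested with edgeR 4.0.16 in R 4.3.3 (quasi-likelihood test fitted over the 4 groups together, file total as library size, Benjamini-Hochberg adjustment over all features), with DESeq2 1.42.0 as an alternative. SEs were derived from the F statistic. Shares and ratios were put to two-sided exact permutation tests, in which p cannot fall below 0.333, in Python 3.11.15 with scipy 1.17.1. A count of 3 corresponds to between 1.13e-05% and 4.03e-05% of a library, for counting error only. The code was tested on simulated data.

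Named sequences were the 3 with the highest mean share, the most abundant in each group and in each RNA class, and 1 of them is not reported here. Named genes were the 3 with the highest mean share in each class and the 3 highest and 3 lowest fold changes past the threshold in each comparison. The labels call the replicates biological duplicates. Alternatives to the denominator, lengths, normalization, filter, class order and replicates were tried.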

Additional observations from a re-analysis of the deposited data

How the results depend on the processing

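The fold in share from E13.5 to E15.5 was 0.832 with 21 to 23 nt reads as the denominator in place of 0.166, 0.0876 with 20 to 33 nt reads, and 0.0985 over distinct sequences above the valley, an alternative chosen after seeing the data. The 20 classes lower at E15.5 became 0 with TMM, with 21 to 23 nt reads as library size and with DESeq2, and the 10 RNA classes became 1, 1 and 2. Leaving out single libraries gave between 8 and 11 RNA classes and left the 20 classes at 20. Counts of source genes were unstable. For E13.5 against E12.5, 1 higher became 0 with TMM and 54 with DESeq2, which also called 12 lower, and was between 0 and 1 without single libraries, with or without the tested features held. For E15.5 against E13.5, 6 lower became 0 with TMM, 1 with 21 to 23 nt reads, 33 with DESeq2 and 3 without the filter, and was between 2 and 6 without single libraries. Leaving out a library let 20441 to 26393 features pass the filter in place of 9061, so these ranges mix both changes. With the 9061 features held, an alternative chosen after seeing the data, the range was 2 to 9. Those higher became 2 with 21 to 23 nt reads and 25 with DESeq2. For SGET mPGCLCs against E12.5, 2 higher became 0 with TMM, 1 with 21 to 23 nt reads, 43 with DESeq2 and 1 without the filter, with 34 lower in DESeq2, and was between 0 and 2 without single libraries, with or without the features held. Those lower were 0 to 4 with them held. The cause was not tested. At E15.5, some log2 fold changes turned positive. With 21 to 23 nt reads these were Lars2 (0.037), Gm42418 (0.42), the class of annotated miRNA genes (0.45), other transcripts (0.13) and ribosomal-repeat RNAs (0.40). With DESeq2 they were Gys1 (0.19), Lars2 (0.48), Gm42418 (0.89), the class of annotated miRNA genes (0.22) and ribosomal-repeat RNAs (0.11). With TMM it was Gm42418 (0.54). The leading genes of the miRNA class by mean share are named above.

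Replicate numbers alone do not pair these libraries. With the replicate block the share fold was 0.157 and the ratio fold 0.839 from E13.5 to E15.5, 20 classes and 10 RNA classes stayed lower, source genes lower at E15.5 numbered 8, and the 1 source gene higher at E13.5 became 0. Deviations of same-numbered libraries correlated with r = 0.885 across classes for E15.5 and E13.5, r = 0.080 for E13.5 and E12.5, and r = 0.413 for SGET mPGCLCs and E12.5. Across RNA classes r was 0.451, 0.274 and 0.196, and across source genes -0.034, 0.098 and -0.0004. Replicate 1 had the higher share and the higher ratio in 4 of 4 groups. Classes are not independent replicates.

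Without single libraries, the share fold from E13.5 to E15.5 was between 0.104 and 0.228, and the ratio fold between 0.594 and 1.21.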
